A study of Mus musculus with 24 samples.

Results

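The comparison described here is that of bone from wild-type mice at 18 months with bone from wild-type mice at 3 months, across genes beyond those of osteoblasts, fat and muscle. Its members are the 6 samples titled wild type at these ages, 3 per age, of 24 samples in all. Total RNA of tibia and femur was hybridised to Affymetrix Mouse Gene 2.1 ST arrays, which read each gene with probe sets along its transcript. The other 18 samples are wild-type bone at 6 and 12 months and bone of HSD2OB-tg mice at the 4 ages, with 3 arrays per group. Both ages compared are female wild-type mice on standard chow, without the transgene, which in HSD2OB-tg mice is directed to osteoblasts. The strain is not stated in the labels or the design text. By the labels, tibial marrow was flushed out before extraction, with nothing said of the femur, so the arrays measured whole bone with marrow cells and with whatever tissue adhered to the bone. The design text speaks of biological triplicates, and the labels do not tie each array to a separate animal, so the p-values cover sample-to-sample spread that could partly be technical.

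Bone is built by osteoblasts, which secrete a matrix of fibrillar collagen that is processed by hydroxylases and crosslinking enzymes, bound by glycoproteins and proteoglycans, and then mineralised. In the young skeleton the bones are still lengthening and thickening, while the old skeleton is known for slower formation, more marrow fat and an accumulation of antibody-secreting plasma cells in the marrow. Skeletal muscle is attached to the long bones, and a fragment left on a dissected bone brings abundant contractile and mitochondrial transcripts with it.

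Muscle RNA moved with age in these arrays. The muscle index, the mean log2 signal of 16 skeletal muscle genes such as Ckm and Acta1, was 5.14, 8.11 and 8.23 on the 3 arrays of 3 months and 7.04, 10.62 and 10.92 on the 3 of 18 months. Replicate 1 of 18 months thus lay within the 3-month range, and replicates 2 and 3 lay above all 3-month arrays. All 16 genes of the index were above 0 in the fitted age difference, with a median of 3.11 on the log2 scale, but only Mb, which encodes myoglobin, was called (4.04, limma adjusted p = 0.0279). The number called was 6 on arrays that share the commonest code prefix in the labels, and 0 to 8 when single arrays were left out. It was all 16 without the 4 arrays lowest in muscle RNA, with a median of 2.39. Those 4 arrays were picked by the index itself and include replicate 1 of both ages, so that count describes and does not test. More muscle tissue on the bone and more of these transcripts per muscle cell cannot be told apart here. The tissue label was borne by its markers: the bone matrix gene Ibsp averaged 11.69 ± 0.10 on the young and 10.59 ± 0.48 on the old arrays (SD, n = 3), and the neutrophil gene Elane measured 10.96 ± 0.17 and 10.98 ± 0.07. Correlations over genes among the 6 arrays ran from 0.962 to 0.989. Each sample's source name holds a code with 1 of 3 prefixes of unstated meaning, and 2 of 3 arrays at each age carry the commonest prefix. Replicate 1 of 18 months and replicate 3 of 3 months carry the other 2 prefixes, 1 each, so the ages share only the commonest. Among the 6 arrays each of these 2 prefixes rests on 1 array, so its correction draws on the other ages and on transgenic bone. For replicate 1 of 18 months, the low muscle index and the prefix cannot be told apart.

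**Figure D1:**
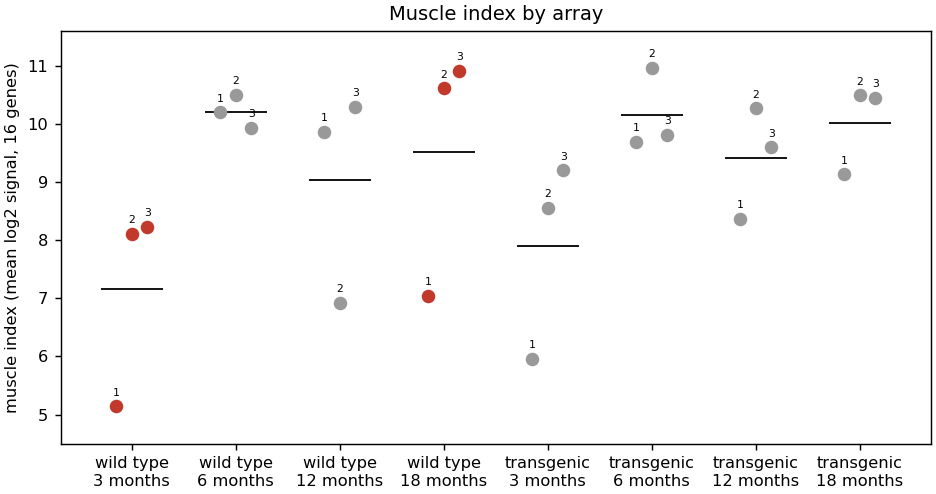
Muscle index (mean log2 signal of 16 skeletal muscle genes) of all 24 arrays by genotype and age, with the replicate number above each point and a line at the mean of each group of 3. The wild-type arrays at 3 and 18 months are red; replicate 1 of 18 months, at 7.04, lies within the 3-month range of 5.14 to 8.23.

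Across genes, 592 of 22180 were called between the ages (2.67%, limma adjusted p under 0.05), with 310 higher at 18 months (1.4%) and 282 lower (1.27%). The falls were more cleanly separated than the rises. All 3 arrays of 18 months lay below all 3 arrays of 3 months for 275 of the 282 falls, while the arrays overlapped for 192 of the 310 rises. Over all genes tested, 9.85% were separated downward and 6.11% upward. The fit includes a term for the code prefix, so a fitted difference need not equal the difference of the means. Without that term 247 genes were called, 42 higher and 205 lower, and with arrays of the commonest prefix alone 413 were higher and 131 lower. The count rested on single arrays: it was 1 without replicate 1 of 3 months, 82 without replicate 2 of 3 months, 9 without replicate 3 of 18 months and 160 without replicate 2 of 18 months. Without replicate 1 of 18 months, the array low in muscle RNA, 472 genes were called higher and 179 lower. The counts for gene lists given below each fell to 0 in at least 1 of these settings, while the medians of the matrix and Wnt lists stayed below 0 in all 6.

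To separate changes that track muscle RNA from those that do not, each gene was correlated with the muscle index within groups over the 18 arrays outside the comparison. A gene was called tracking at r above 0.5, inverse at r below -0.5 and not tracking at r within 0.3 of 0, and genes between these limits were kept apart. These correlations share libraries, and they describe and do not test. Of the 310 rises, 203 tracked muscle (65.5%), 62 did not (20%), 42 were between and 3 were inverse. Of the 282 falls, 221 did not track muscle (78.4%), 51 were between, 5 tracked it and 5 were inverse. Over all genes, 5.91% tracked, 61.6% did not, 25.9% were between and 6.62% were inverse. The majority of tracking genes among the rises depends on the prefix term: with no such term, 5 of the 42 called rises tracked muscle and 28 did not, while 149 of the 205 falls did not track it. Without replicate 1 of 3 months 0 tracking rises, 0 non-tracking rises and 1 non-tracking fall were called, and without replicate 3 of 18 months 0, 3 and 5. The 3 counts were 13, 8 and 44 without replicate 2 of 3 months, 12, 9 and 108 without replicate 2 of 18 months and 305, 96 and 138 without replicate 1 of 18 months. Close to the limits, Procr had an r of 0.53 and Idh3g of 0.49, while Ccl11 had an r of 0.29 and Zbtb7c of 0.30.

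**Figure D2:**
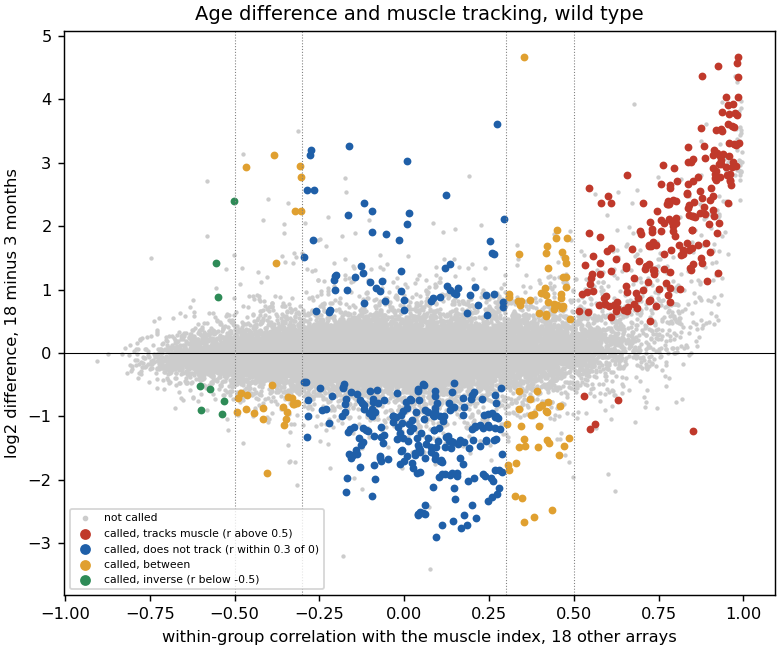
Fitted log2 difference between 18 and 3 months in wild-type bone (vertical axis) against the within-group correlation with the muscle index over the 18 other arrays (horizontal axis), 1 point per gene, with the 592 called genes in colour by class and dotted lines at the class limits. The 203 tracking rises climb with r at the right edge, and the 221 non-tracking falls lie around an r of 0.

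The classes differed in where the array that is old but low in muscle RNA lay. Replicate 1 of 18 months lay above all 3-month arrays for 49 of the 203 tracking rises (24.1%), close to the 25.9% of all genes. For the non-tracking rises it did so for 47 of 62 (75.8%). It lay below all 3-month arrays for 216 of the 221 non-tracking falls (97.7%), against 31% of all genes. The called genes were selected in part on this array. It was also singled out by its low muscle index, which tracking genes followed on the other arrays. These shares are therefore a description.

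With the muscle index as a covariate, that is, at equal muscle RNA, the tracking rises shrank most. Their median went from 2.05 to 0.72, and 149 of the 203 kept less than 50% of their difference. For the 62 non-tracking rises the median was 1.14 without the covariate and 1.09 with it, and 52 kept at least 75%. The 42 rises between the limits went from a median of 1.03 to 0.78, and 17 kept at least 75%. For the 221 non-tracking falls the medians were -1.29 and -1.31, and 216 kept at least 75%. An unadjusted p under 0.05 in the same direction remained for 91 of the 203 and 60 of the 62 rises, where 3.95% of all genes had one upward, and for 219 of the 221 falls, where 5.35% had one downward. The same arrays chose these genes, so the counts describe and do not test. By limma 3 genes were called at equal muscle RNA (0.0135%), Gpnmb higher and Cdh12 and Ranbp3l lower, while 2063 had an unadjusted p under 0.05 (9.3%). With the slow-fibre genes as the index 13 genes were called, and with no prefix term 87. The count was 24 without replicate 3 of 3 months, 0 without replicate 2 of 3 months and 1 without replicate 1 of 18 months.

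**Figure D3:**
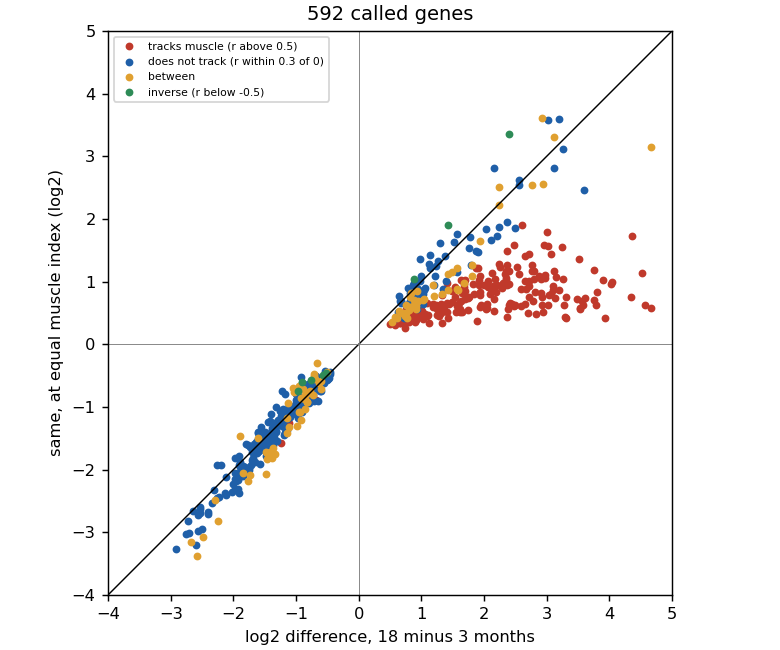
Fitted log2 difference between 18 and 3 months (horizontal axis) against the same difference with the muscle index as a covariate (vertical axis) for the 592 called genes, coloured by class, with the line of equality. Tracking rises fall far below the line, with a median of 0.72 in place of 2.05, and non-tracking falls lie along it, with medians of -1.31 and -1.29.

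The promoters of 1 tracking rise and 1 non-tracking fall are shown as examples of the sequences searched. They are those of desmin (Des), the intermediate filament protein of muscle, and osteocalcin (Bglap), a protein of mineralised bone matrix. The 250 bases before the RefSeq start of each (build GRCm38.p6) are shown, on the gene's strand, with the letters CAGCTG, the E-box core bound by myogenic factors, in capitals in Des (chr1:75360042-75360291, plus strand) and the letters ACCACA, the core of the Runx site, in capitals in Bglap (chr3:88384467-88384716, minus strand).
Des: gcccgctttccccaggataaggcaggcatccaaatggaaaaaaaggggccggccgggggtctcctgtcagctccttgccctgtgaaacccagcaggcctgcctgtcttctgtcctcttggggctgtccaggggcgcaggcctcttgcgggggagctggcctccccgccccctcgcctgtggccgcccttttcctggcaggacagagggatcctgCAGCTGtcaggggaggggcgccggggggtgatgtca
Bglap: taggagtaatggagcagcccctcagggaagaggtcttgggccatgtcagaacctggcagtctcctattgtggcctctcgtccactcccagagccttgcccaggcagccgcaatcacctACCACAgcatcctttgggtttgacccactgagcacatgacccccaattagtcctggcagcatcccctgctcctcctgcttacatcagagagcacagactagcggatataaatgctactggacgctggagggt
The CAGCTG of Des begins 36 bases before the start, and the ACCACA of Bglap 132 bases before it. The search covered both strands of windows of the same length, in 203 promoters of 157 tracking rises and 225 promoters of 168 non-tracking falls. CAGCTG was in 21.2% and 14.2% of these, in that order, and in 13% of all 32851 promoters in the table. ACCACA was in 15.3%, 10.2% and 14% of the same promoters. The non-tracking falls thus did not hold the Runx core more often than promoters at large. The promoter table held 447 of the 592 called genes, and some genes have several starts.

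Among the rises that tracked muscle, most of the genes named for a lack of overlap between ages serve the excitation, structure or metabolism of muscle fibres. Cacng1, a calcium channel subunit of skeletal muscle, measured 2.76, 3.93 and 3.97 at 3 months and 3.98, 6.51 and 7.0 at 18 months. The lowest old array barely cleared the highest young one, and the fitted difference was 2.98 ± 0.59 (SE, adjusted p = 0.0198), or 7.87-fold, with 1.10 at equal muscle RNA. Popdc3, a muscle membrane protein that binds cyclic AMP, measured 2.33, 2.74 and 2.70 against 2.78, 6.00 and 5.54 (2.81 ± 0.60, adjusted p = 0.0247). Here again the array of 18 months that is low in muscle RNA sat beside the young arrays. Rbm24, a splicing factor of muscle (3.04), and Lmod3, which nucleates actin filaments (2.41), rose as well, and so did Lsmem1 (2.37). Larger tracking rises, whose arrays overlapped, included the sarcomere genes Myot (4.66) and Mybpc1 (4.58), picked out after their values were seen.

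Metabolic regulators and enzymes were mostly in the same class. Ppargc1a, the coactivator that drives mitochondrial biogenesis, measured 3.43, 3.12 and 3.65 at 3 months and 3.69, 7.08 and 6.08 at 18 months. Its difference of 3.01 ± 0.55 (SE, adjusted p = 0.0152) was carried by 2 old arrays and was 1.79 at equal muscle RNA. Of 18 genes of oxidative phosphorylation and the citrate cycle, 6 rose, all 18 lay above 0 and the median was 0.54, or 0.23 at equal muscle RNA. The 6 include Cox7a1, a cytochrome oxidase subunit of muscle and heart (2.40), Idh3a of the citrate cycle (1.03) and Ndufa9 of complex I (0.80), while Uqcrc1 of complex III (0.75) had an r of 0.47 and lies between the limits. Of 17 genes of fatty acid oxidation, 4 rose: Ppargc1a, the mitochondrial carrier Ucp3 (2.38), and the acyl-CoA dehydrogenases Acadm (0.95) and Acadl (0.70), the last in the class between the limits. Gpd1, the glycerol phosphate dehydrogenase of muscle and fat, was 5.15, 5.69 and 5.67 against 6.45, 8.23 and 8.38. It was separated on all arrays (2.48 ± 0.39, adjusted p = 0.00703), had an r of 0.60 with muscle and of 0.50 with the fat list, and was 1.59 at equal muscle RNA. A second, dimmer probe set for Gpd1 gave 0.89 (adjusted p = 0.0548). Fmo2, a flavin monooxygenase, was 5.01, 4.60 and 5.94 against 7.92, 7.53 and 7.36, so that the old array low in muscle was here the highest of all (2.60 ± 0.54, adjusted p = 0.0222).

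Some genes that hold no contractile role also sat in this class. Mstn, the secreted inhibitor of muscle growth, was 1.34, 1.56 and 1.59 at 3 months and 1.40, 4.22 and 5.27 at 18 months (2.60 ± 0.65, adjusted p = 0.0411), and it was the 1 rise among 41 genes of BMP and TGF-beta signalling. Hspb1, a small heat shock protein abundant in muscle, was 3.50, 3.48 and 4.14 against 3.50, 6.46 and 5.67 (1.93 ± 0.46, adjusted p = 0.0358), the 1 call among 24 stress and heat shock genes, though a second, dimmer probe set for it gave 0.12 (adjusted p = 0.913). For both, replicate 1 of 18 months read like a young array. Over all genes 1.4% were called higher, so 1 rise in lists of 41 and 24 genes is not read as a result about the list. Of 22 glucocorticoid response genes, 2 rose: Zbtb16, a transcription factor with an r of 0.58 (1.41, adjusted p = 0.0198), and the sulfotransferase Sult1a1, which did not track muscle (1.40, adjusted p = 0.0466). Chrnd, the acetylcholine receptor subunit that denervated fibres express, was the 1 call among 10 genes of muscle development and denervation (1.77 ± 0.35, adjusted p = 0.0198), with levels of 2.26, 1.85 and 1.81 against 2.32, 4.10 and 4.01. Its r of 0.25 put it among the non-tracking genes, although its old array low in muscle lay next to the young ones. In wild-type bone it was 2.01 to 2.26 at 6 months and 1.84 to 2.32 at 12 months, as low as at 3 months. That r thus rests partly on low levels and does not settle whether Chrnd tracks muscle. Nor is 1 call among 10 genes read as a result about the list.

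Only 5 falls tracked muscle, and for them the rise in muscle RNA ran against the fall. Slc20a2, a sodium-phosphate cotransporter, was 9.41, 8.80 and 9.12 at 3 months and 7.14, 8.11 and 7.80 at 18 months. Its r was 0.85 over the 18 other arrays, and its lowest level was on the old array with the least muscle RNA. At 3 months the order was the reverse, with its highest level, 9.41, on the young array with the least muscle RNA. Its difference went from -1.24 ± 0.23 (SE, adjusted p = 0.0187) to -1.57 at equal muscle RNA. Mageh1 (-1.20), the proprotein convertase Pcsk5 (-1.12), the synaptotagmin Syt6 (-0.74) and the cargo lectin Lman1 (-0.68) were the other 4. At 3 months these 4 too were highest on the array with the least muscle RNA. Among the inverse genes, Rasd1, a dexamethasone-induced Ras protein (1.42), and the peptide transporter Slc15a2 (0.88) rose. Piezo1, the mechanosensitive channel, was 8.38, 8.26 and 8.14 against 7.88, 7.86 and 7.88, a small fall with little spread (-0.51 ± 0.12, adjusted p = 0.0295). The mitochondrial myosin Myo19 (-0.76), Galk2 (-0.56) and Gramd2 (-0.97) fell too.

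The non-tracking rises included antibody transcripts. Ighg3, the constant region of the IgG3 heavy chain, was 5.72, 6.04 and 5.82 at 3 months and 7.72, 10.03 and 10.23 at 18 months. Every old array exceeded every young one, with a difference of 3.61 ± 0.78 (SE, adjusted p = 0.0259) or 12.2-fold, and 2.47 at equal muscle RNA. A second, dimmer probe set for Ighg3 gave 2.33 (adjusted p = 0.277), and immunoglobulin genes resemble each other, so probes may read several of them. Jchain, which joins secreted antibody multimers, was 6.92, 7.44 and 7.09 against 10.04, 9.40 and 9.53 (2.24 ± 0.55, adjusted p = 0.0375). It was highest on the old array low in muscle RNA, and with an r of -0.30 it lies just outside the non-tracking limits. All 13 kappa variable segments measured were above 0, with a median of 2.71. Of them 6 rose, by 1.78 to 4.67, of which 3 did not track muscle, 2 were between the limits and 1 was inverse. No overlap between ages was seen for 12 of the 13. Over all genes 1.4% were called higher and 6.11% were separated upward. The 14 plasma cell genes had a mean of 6.25 ± 0.04 at 3 months and 6.98 ± 0.06 at 18 months (SD, n = 3), with 12 above 0 and Jchain the 1 call. Of 17 mature B cell genes 16 lay above 0 with a median of 0.32, and none was called. The median over all genes was -0.02. Cd79a, part of the B cell receptor, had a difference of 0.93 (adjusted p = 0.378). In bulk RNA, more cells of a type and more RNA per cell cannot be told apart, nor can fewer cells and less RNA for the falls below.

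A few genes of myeloid and innate immune function rose without tracking muscle, while most members of these lists were not called. Gpnmb, a glycoprotein of lipid-laden and lysosome-rich macrophages that osteoblasts and osteoclasts also make, was 4.35, 3.84 and 5.24 at 3 months and 6.95, 7.34 and 6.95 at 18 months. The old arrays were tightly grouped above the young ones, with 3.03 ± 0.45 (SE, adjusted p = 0.00576), or 8.14-fold, and 3.59 ± 0.55 at equal muscle RNA (adjusted p = 0.0384). It was 1 of 3 rises among 23 genes of lipid-handling macrophages, the others being the fatty acid transporter Cd36 (1.57) and the fatty acid binding protein Fabp5 (0.98). Cd36 is also in the fat list, and Fabp5 has several probe sets that differ in their calls. C4b, a component of the classical complement pathway, was 6.46, 6.37 and 6.50 against 8.03, 8.09 and 8.04. The spread within each age was small beside the difference of 1.52 ± 0.33 (adjusted p = 0.0264), and its r was -0.30 with muscle and 0.90 with the fat list. Cfb, complement factor B, went the same way (1.23, adjusted p = 0.0411), and its r with the fat list was 0.72. Of 16 complement genes 14 were above 0, with a median of 0.35. Timd4, a receptor for dying cells on resident macrophages, rose by 1.15 as the 1 call among 22 macrophage genes. Cxcr6, a chemokine receptor of T and NK cells, rose by 1.12 as the 1 call among 27 genes of those cells. Over all genes 2.67% were called, so 1 call in lists of 22 and 27 genes is not read as a result about the list.

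Further non-tracking rises were stress, chemokine and fat-related genes. Atf3, a transcription factor of the stress response, was 4.18, 4.13 and 4.73 against 5.09, 6.89 and 6.36 (2.03 ± 0.32, adjusted p = 0.00703). The old arrays were all above the young ones, with the array low in muscle lowest among them. Of 29 immediate early genes 3 rose, Atf3, Nr4a1 (1.81, r of 0.48) and the muscle-tracking Nr4a3 (1.64), with a list median of 0.05. Ccl11, the eosinophil chemokine eotaxin, was 4.29, 3.88 and 3.96 against 4.35, 6.33 and 6.88, so 1 old array was level with the young (2.11, adjusted p = 0.0198). H2-M2, a nonclassical MHC class I gene, was 5.55, 4.31 and 5.61 against 8.47, 7.33 and 6.86, with the highest level on the old array low in muscle RNA (2.17, adjusted p = 0.0454). Mrap, the melanocortin receptor accessory protein of fat cells (2.56), the lipogenic protein Thrsp (2.37) and the glycerol channel Aqp7 (2.21) had r with the fat list of 0.79, 0.88 and 0.75. Over the 18 other arrays 21 of the 62 non-tracking rises had an r above 0.5 with the fat list, against 4.44% of all genes. The fat list itself held 9 rises among 19 genes, such as Plin1 (3.12) and Scd1 (2.56), and 41 of the 62 had an r above 0.5 with neither the fat nor the osteoblast list. Efemp1, a matrix glycoprotein in the class between the limits, rose by 2.77 (adjusted p = 0.00576) and was picked out after its values were seen.

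The falls included extracellular matrix genes. The 6 matrix lists held 28 of the 282 falls, of which 23 did not track muscle and 5 were between the limits, and 510 of the 592 called genes are in no list. Of 11 fibrillar collagen genes 6 fell, all 11 lay below 0 and 9 had no overlap between ages, against 9.85% of all genes. The list median was -1.94, or -2.13 at equal muscle RNA, and its mean level was 9.20 ± 0.36 at 3 months and 7.38 ± 0.23 at 18 months (SD, n = 3). Col11a1, which sets the diameter of collagen fibrils, was 10.88, 10.36 and 10.27 against 7.88, 8.32 and 7.02. All old arrays were more than 1 log2 unit below the young ones, a fall of 7.52-fold (-2.91 ± 0.68, adjusted p = 0.0319). The related chains Col5a2 (-2.71), Col11a2 (-2.54), Col5a1 (-1.97) and Col24a1 (-1.94) also fell. A second, dimmer probe set for Col5a1 gave -0.59 (adjusted p = 0.253). Of 17 other collagens 3 fell, Col12a1 (-2.25, r of 0.33 with muscle), Col22a1 (-1.72) and Col16a1 (-1.37), with a median of -1.05. Enzymes and chaperones that process collagen went the same way, with 7 of 23 lower and a median of -1.05. They include Plod2, the lysyl hydroxylase of collagen crosslinks (-1.77), Serpinh1, the collagen chaperone (-1.71), P3h1, a prolyl hydroxylase (-1.68), Fkbp14 (-1.15, r of 0.40 with muscle) and the lysyl oxidase Loxl3 (-0.78).

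Other matrix classes held falls as well. Of 30 matrix glycoproteins 7 fell, with a median of -0.93. Fbn2, the fibrillin of early elastic microfibrils, was 6.78, 5.82 and 6.52 against 4.36, 4.10 and 3.74 (-2.26 ± 0.31, adjusted p = 0.00439). Its old arrays were all below its young ones, as were those of fibronectin Fn1 (-1.48), the microfibril protein Mfap2 (-1.39), thrombospondin Thbs1 (2-fold) and Matn4 (-0.99). Of 13 small leucine-rich proteoglycans 2 fell, lumican Lum (-2.67, r of 0.35 with muscle) and osteomodulin Omd (-2.27), with a median of -0.79. Of 20 matrix proteases and inhibitors 3 fell, the inhibitor Timp1 (-1.91), the membrane protease Mmp16 (-1.85) and Adamts9 (-1.22), and 1 rose, Timp4 (1.69, r of 0.42 with muscle). Cemip, which breaks down hyaluronan, was 7.12, 6.68 and 6.73 against 4.90, 4.12 and 3.99, a clear separation (-2.65 ± 0.45, adjusted p = 0.012). The citrate transporter Slc13a5 (-2.76), Prss35 of the serine protease family (-2.60), carboxypeptidase Cpz (-2.56) and the ectonucleotidase Entpd3 (-2.56) were the other large falls named. Over the 18 other arrays, 162 of the 221 non-tracking falls had an r above 0.5 with the osteoblast list, against 10.2% of all genes, and 57 had such an r with neither that list nor the fat list. The osteoblast list measured 9.73 ± 0.28 at 3 months and 8.14 ± 0.36 at 18 months (SD, n = 3), with all 12 genes below 0, and its part in the other falls was not tested. Col11a1, Col11a2, Col5a2, Col5a1 and Col24a1 had r of 0.87 to 0.98 with that list. Thbs1 and Matn4, with r of 0.36 and -0.15, were among the falls that did not follow it.

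Signalling genes fell in smaller numbers, mostly antagonists and transcriptional effectors. They were not set apart from the falls that follow the osteoblast list. Among them Ccn4, Frzb, Gli3, Grb10 and Hey1 had r with that list of 0.95, 0.90, 0.95, 0.82 and 0.71. The part of that list in these falls was not tested. Of 28 Wnt pathway genes 4 fell: the secreted antagonists Wif1, Frzb and Sfrp4, and Ccn4, a matricellular Wnt target. Wif1 was 9.71, 9.47 and 9.81 against 7.94, 8.23 and 7.11, with no overlap (-1.89 ± 0.46, adjusted p = 0.0386), and the others were at -1.31, -1.23 and -1.69. Of 32 hedgehog, Notch and FGF genes 2 fell. Hey1, a transcriptional repressor downstream of Notch and BMP, was 7.66, 7.21 and 7.12 against 4.44, 5.49 and 4.70 (-2.31 ± 0.33, adjusted p = 0.00509), and Gli3, a hedgehog effector, was at -1.50. Smad6, the inhibitory Smad, was the 1 fall among 41 BMP and TGF-beta genes (-1.71 ± 0.26, adjusted p = 0.00576). Grb10, an imprinted adaptor that restrains insulin signalling, was the 1 call among 20 imprinted growth genes (2-fold). Over all genes 1.27% were called lower, so 1 fall in lists of 41 and 20 genes is not read as a result about the list. Cdh11 was the 1 call among 13 genes of the osteocyte list (-1.25), and Sost, the Wnt inhibitor of mature osteocytes, had a difference of 0.26 (adjusted p = 0.851).

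A pair of falls stood out at equal muscle RNA. Cdh12, a cadherin described mostly in the nervous system, was 3.22, 3.37 and 3.38 at 3 months and 1.19, 1.23 and 1.75 at 18 months. The separation was wide beside the spread (-1.88 ± 0.21, adjusted p = 0.00133; -2.10 at equal muscle RNA, adjusted p = 0.0091), though the levels are low on this array, where a probe set may be near its background. It was also the gene left when replicate 1 of 3 months was omitted (-1.93, adjusted p = 0.0115). Ranbp3l, of the Ran-binding family, was 6.47, 6.15 and 6.07 against 3.73, 3.83 and 3.77, the old arrays close together. Its difference was -2.48 ± 0.36 (adjusted p = 0.00509), or 5.59-fold lower, and -3.08 at equal muscle RNA (adjusted p = 0.0091).

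Of 49 lists, 19 had no called member. Cell cycle genes had a median of -0.12 over 23 genes, osteoclast genes -0.25 over 15, neutrophil genes -0.10 over 20, erythroid genes -0.11 over 11, endothelial genes 0.02 over 20, interferon response genes 0.01 over 23 and senescence-associated secretory genes 0.07 over 22. The median of all genes tested was -0.02. Below 0 lay all 15 osteoclast genes, 19 of the 23 cell cycle genes, 14 of the 20 neutrophil genes and 8 of the 11 erythroid genes. For the endothelial, interferon and secretory lists these counts were 9, 10 and 10. For the osteoclast protease Ctsk the difference was -1.04 (adjusted p = 0.276) and for Il1b of the secretory list 0.58 (adjusted p = 0.286). At equal muscle RNA the medians were 0.53 for interferon response, 0.15 for neutrophil, 0.19 for erythroid and 0.14 for cell cycle genes, the last 3 changing sign. For the cartilage list the median of -0.93 became -0.26, Col11a2 was the 1 call among 20, and Acan, the cartilage proteoglycan, was at -3.41 ± 1.07 (SE, adjusted p = 0.105). Tendon and fibroblast genes changed sign with the covariate, from a median of 0.48 to -0.46, with none of 14 called. Changes in sign or size of this kind were not tested for cause.

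**Figure D4:**
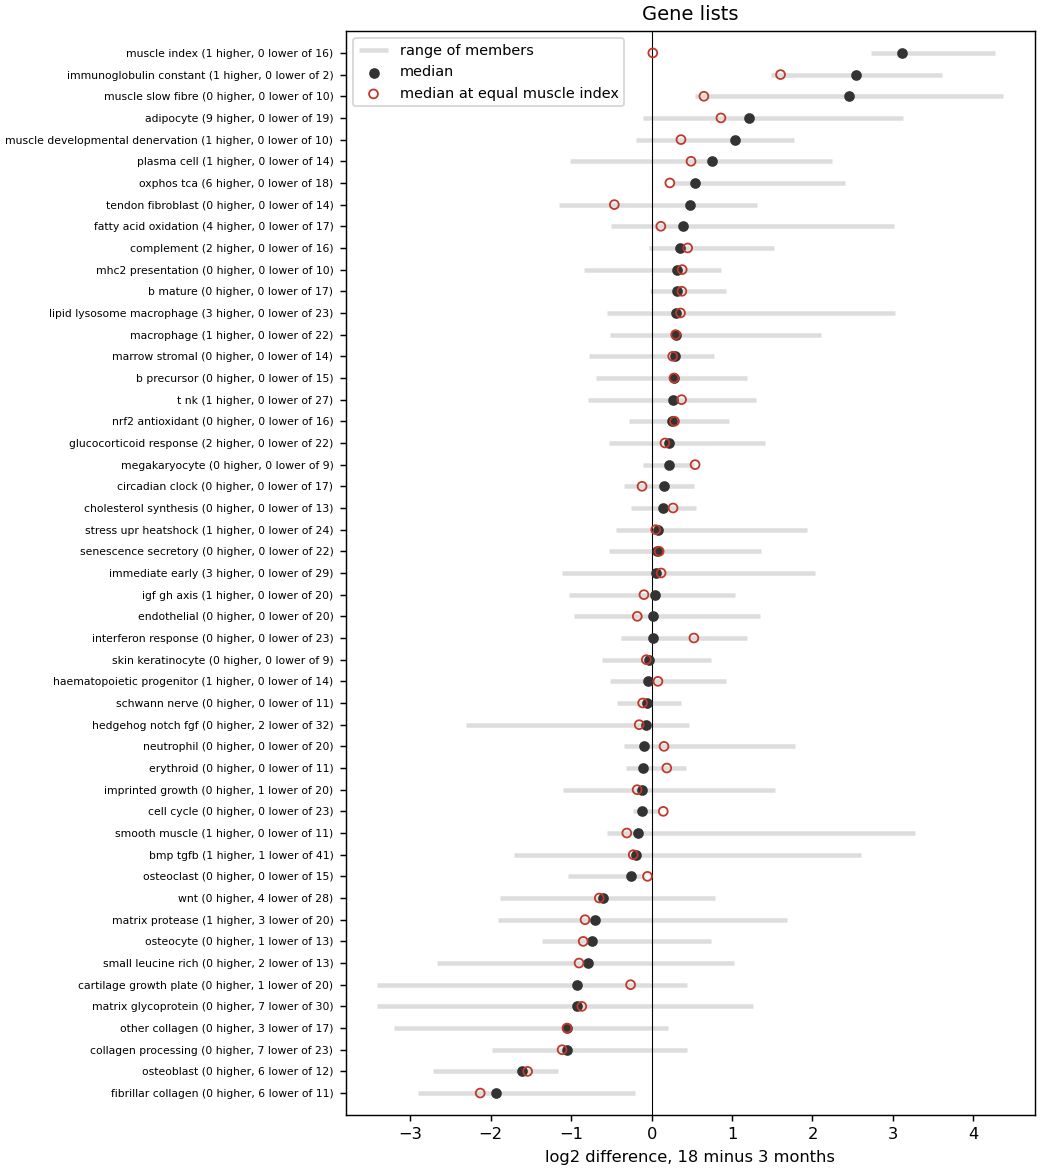
Gene lists ordered by their median log2 difference between 18 and 3 months in wild-type bone (black points), with the range of members (grey bars) and the median at equal muscle RNA (open red circles); the labels give called members over measured ones. Fibrillar collagens lie lowest at -1.94 and the muscle index highest at 3.11. Its 0.01 at equal muscle RNA is set near 0 by construction, because the same genes make up the covariate.

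The wild-type groups of 6 and 12 months give the levels between these ages. The values are group means without the prefix term: all 3 arrays of 12 months carry 1 prefix, not the commonest, and 1 of 3 at 6 months carries the commonest, so that age and prefix cannot be told apart at 12 months. For the non-tracking falls the median difference of group means from 3 months was -0.91 at 6 months, -1.37 at 12 months and -1.24 at 18 months. For the non-tracking rises it was 0.53, 0.53 and 1.10, and for the tracking rises 1.51, 0.97 and 1.57. The 3 differences share the 3-month arrays, and the genes were called on the last of them. In these means the falls were already lower at 6 months. Fbn2 was 6.37 ± 0.50 (SD, n = 3) at 3 months, 4.30 ± 0.64 at 6, 4.27 ± 0.22 at 12 and 4.07 ± 0.31 at 18, and Cdh12 was 3.32, 1.52, 1.72 and 1.39. Rises took several courses. C4b was 6.44 ± 0.07, 6.63 ± 0.09, 7.57 ± 0.50 and 8.06 ± 0.03 at the 4 ages. Ighg3 was 5.86 ± 0.16, 6.92 ± 0.64, 8.34 ± 0.72 and 9.33 ± 1.39. Gpnmb was 4.48 ± 0.70, 8.38 ± 0.44, 6.49 ± 0.68 and 7.08 ± 0.23, highest at 6 months.

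**Figure D5:**
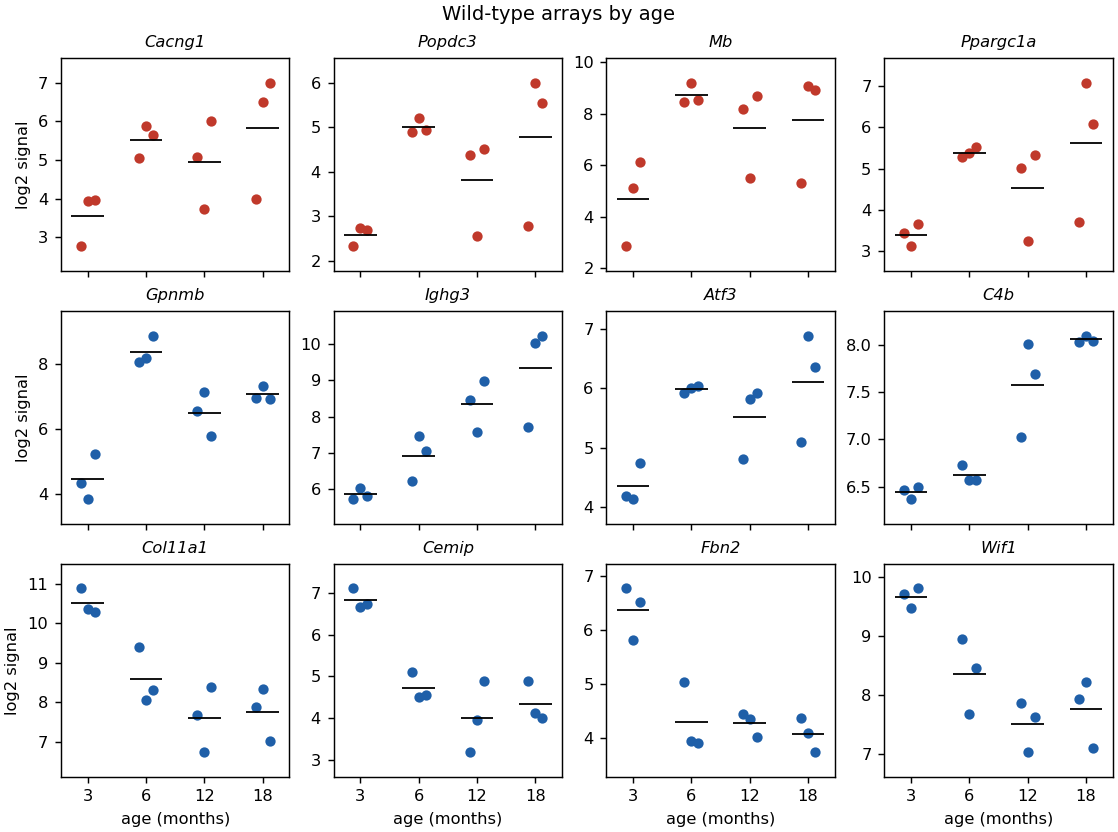
Log2 signal on each wild-type array at 3, 6, 12 and 18 months for 12 genes, with a line at each mean of 3; red genes track muscle RNA and blue genes do not, and each panel has its own vertical scale. C4b lies between 8.03 and 8.09 at 18 months and Gpnmb is highest at 6 months, while Col11a1, Cemip, Fbn2 and Wif1 are below their 3-month arrays at 18 months.

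The same ages in transgenic bone use other arrays but the same fit. At these ages the arrays of both genotypes carry the same set of prefixes, so the same prefix correction enters both age differences. Agreement in sign between the genotypes is thus partly built in. There 92 genes were called higher (0.415%) and 268 lower (1.21%). Muscle RNA moved there too, with an index of 5.95, 8.56 and 9.20 at 3 months and 9.14, 10.49 and 10.45 at 18 months. Of the 221 non-tracking falls of wild-type bone, 217 were below 0 in transgenic bone and 132 were called (59.7%). Of the 62 non-tracking rises 61 were above 0 and 13 were called, and of the 203 tracking rises all were above 0 and 44 were called. For all genes, 48.2% were above 0 in transgenic bone. Gpnmb differed by 3.01 ± 0.45 (SE, adjusted p = 0.00813), Ighg3 by 3.52 (adjusted p = 0.0324), Ranbp3l by -2.61 (adjusted p = 0.00813) and Fbn2 by -1.86 (adjusted p = 0.011). C4b had 1.06 (adjusted p = 0.112) and Atf3 1.14 (adjusted p = 0.0753), neither called. All 13 kappa variable segments were above 0, with a median of 2.33. In the direct test of the age difference between genotypes limma called 0 genes, and 754 had an unadjusted p under 0.05 (3.4%). For Cdh12 the age difference was -0.98 in transgenic bone, 0.90 ± 0.28 (SE) less negative than in wild type, with the lowest unadjusted p for this test among the genes named here, and not called.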

How the data were processed

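The 24 samples of bone RNA were hybridised to 1 array each. The deposited series table holds log2 values, whose base was inferred from their range of 0.09 to 13.7. MAS5 is the tool named, per the submitters' processing notes; its background correction and scaling are not stated there. Array medians ran from 3.55 to 3.64, and the number of arrays limits the precision. Of 41034 rows 23521 had 1 gene symbol, and the brightest row stood for a gene, leaving 22180 genes. The other 17513 rows, tested separately, gave 3 calls higher and 1 lower and are not named.

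The age difference was estimated by limma 3.58.1 (lmFit and eBayes, R 4.3.3) over all 24 arrays with terms for the 8 groups and 3 code prefixes, with 14 residual degrees of freedom. All tests, two-sided, were adjusted by Benjamini-Hochberg over all genes, and genes were called under 0.05. The fit at equal muscle RNA added the muscle index. The fit was tested on simulated data before use.

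Named were, among called genes outside the osteoblast, fat and muscle lists with no overlap between ages, the 8 largest rises and falls in each tracking class, up to 5 called members of each of 49 lists (or 2 where none was called), and genes called at equal muscle RNA. Predicted genes and variable segments were counted and not named. Members and lists were chosen with earlier results of these data known. Alternatives were other scalings, row choices, variance priors, prefix handling, muscle indices, a replicate block and leaving out arrays. The main fit did not pair samples by replicate number. Correlations of deviations between arrays of the same number were 0.20, -0.04 and 0.09, which does not settle whether the numbers pair samples.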

Additional observations from a re-analysis of the deposited data

How the results depend on the processing

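The 592 calls became 247 with no prefix term, 186 from the 6 arrays compared alone, 39 with the replicate number as a block, 1002 with array weights, 0 with a fold minimum of 1.5, 3 with the muscle index as a covariate and 300 without the 4 arrays lowest in muscle RNA. With the fold minimum (limma's treat) 175 of the 203 tracking rises, 38 of the 62 non-tracking rises and 153 of the 221 non-tracking falls had an unadjusted p under 0.05. Leaving out single arrays gave 1 to 651. Between 544 and 699 genes were called under the other settings: quantile normalization, median centring, a filter on dim genes, other row choices, other variance priors and the commonest prefix alone. Whether the replicate numbers pair samples is not settled. Replicate 1 had the lowest muscle index at both ages compared, 5.14 at 3 months and 7.04 at 18 months. It was also lowest in every transgenic group, at 5.95, 9.70, 8.37 and 9.14 from 3 to 18 months. In wild-type bone of 6 and 12 months it was not the lowest. Replicate number and muscle RNA thus partly go together, also on the arrays that set the tracking classes. The fall to 39 calls under the block is therefore a limit on the count. The 203 tracking rises became 5 with no prefix term and 0 to 305 when single arrays were left out. The 221 non-tracking falls became 29 without the 4 arrays lowest in muscle RNA, a setting chosen after the data were seen, and 1 to 249 without single arrays. The 62 non-tracking rises became 28, 23 and 0 to 96 under the same 3 settings. At equal muscle RNA 3 genes were called, 13 with the slow-fibre index, 87 with no prefix term and 0 to 24 without single arrays. The genotype difference in age effect called 0 genes in every setting run. Over the genes called in the main fit, medians without single arrays were 1.88 to 2.34, 1.11 to 1.21 and -1.43 to -1.08. The 3 classes are in the order tracking rises, non-tracking rises, non-tracking falls. These genes were chosen on the arrays then left out. Their signs and sizes were largely set by that choice, so the medians describe and do not test. Of the 101 called genes named, likewise chosen on these arrays, none changed sign in the settings in which they were refitted. Of them 53 were also called within the commonest prefix, 56 with no prefix term and 38 on the 6 arrays alone. Without replicate 1 of 3 months 1 of the 101 stayed called, without replicate 3 of 18 months 4, without replicate 2 of 3 months 16 and without replicate 2 of 18 months 32; with the replicate block 11 did. Uncalled Cdh19 turned to 0.0716 within the commonest prefix, and uncalled Slc4a1 to 0.0503 with the muscle covariate. The probe sets' detection was not assessed, which limits dim genes such as Cdh12.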
